A study of Mus musculus with 18 samples.

Results

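Whole-brain expression in a mouse line labelled as lacking estrogen receptor alpha (ERalphaKO) was compared directly with that in a line labelled as lacking estrogen receptor beta (ERbetaKO). The comparison used the 12 arrays of the 18 in the study whose titles name a receptor knockout, 6 for each line, and each line was represented by 3 female samples (FB in the title) and 3 male samples (MB in the title). All were whole brains of 8-week-old mice, and both lines were on the C57BL/6 background, as was the wild type group of 3 female and 3 male samples. No treatment is given in the labels. The labels also do not describe how either receptor gene was disrupted, and they do not say that the numbered samples of a group came from separate animals, so the spread behind each p-value may be technical. The deposited values are Affymetrix MAS5 signals, a linear measure of probe set brightness, and differences are given as log2(signal + 63.63), ERalphaKO-labelled minus ERbetaKO-labelled, a scale that understates the change of weak signals.

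Estrogen receptor alpha, encoded by Esr1, and estrogen receptor beta, encoded by Esr2, are nuclear receptors that bind estradiol and regulate genes through estrogen response elements or through other DNA-bound factors. In the mouse brain Esr1 is best known from the hypothalamus, preoptic area and amygdala, and Esr2 is more sparsely expressed. A whole-brain sample mixes these regions with many cells that express neither receptor. In such samples fewer cells of a type and less RNA per cell cannot be told apart.

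Signals correlated at 0.962 to 0.987 between the knockout samples of one line and sex. Xist, the RNA that silences an X chromosome in females, had its lowest female signal at 3916 and its highest male signal at 449, which matched the sex on every label. The dissections were uneven. The Purkinje cell gene Pcp2 was below 500 on 2 ERalphaKO-labelled, 3 ERbetaKO-labelled and 2 wild type arrays, and the pituitary growth hormone gene Gh ran from 79.7 to 19069 in the ERalphaKO-labelled line and from 92.5 to 18078 in the other. The 3'/5' signal ratio of the Actb control probe sets, a measure of RNA integrity and labelling, was 1.28 ± 0.0786 (SD, n = 6) on ERalphaKO-labelled and 1.48 ± 0.182 on ERbetaKO-labelled arrays (two-sided exact permutation p = 0.00866, 0.026 after Benjamini-Hochberg adjustment over 3 ratios). The corresponding Gapdh ratios were 0.758 ± 0.0125 and 0.756 ± 0.0179 (exact p = 0.872), and those of pyruvate carboxylase were 2.38 ± 0.305 and 2.19 ± 0.226 (exact p = 0.266). The sample descriptions of the ERalphaKO-labelled line carry a code that those of the other groups lack. Its meaning is not given in the labels, and whatever it marks cannot be told apart from the line.

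The targeted genes were examined first because they check the labels. Esr2, read by 1 probe set, had a lowest, median and highest signal of 18.2, 25.6 and 78.2 on the ERalphaKO-labelled arrays. On the ERbetaKO-labelled arrays these were 160.4, 242.6 and 406.6, so the line labelled as lacking estrogen receptor beta had the higher Esr2 signal on all 6 arrays. The wild type mean was 28.7 ± 11.4 (SD, n = 6), close to that of the ERalphaKO-labelled line. The difference was -1.77 ± 0.17 (SE; adjusted p = 2.47e-05, limma), with a two-sided exact permutation p of 0.00216, the smallest that 6 against 6 arrays allow. Esr2 thus goes against its label on this probe set, and the lines are called ERalphaKO-labelled and ERbetaKO-labelled throughout for that reason. Where the probe set lies relative to the disrupted part of Esr2 is not given in the sources used here.

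The 3 probe sets of Esr1 disagreed. The brightest was lower in the ERalphaKO-labelled line, with a lowest, median and highest signal of 86.8, 137.95 and 144.8 against 171.3, 194.7 and 231.3, and the groups did not overlap (difference -0.44, exact p = 0.00216). The other probe sets were higher there. One averaged 65.0 ± 20.6 against 37.2 ± 11.3 (0.34, exact p = 0.0195) and the other 229.8 ± 52.3 against 97.5 ± 55.8 (0.91, exact p = 0.00649), each with overlapping groups. In the fit across all genes the brightest Esr1 probe set had an adjusted p of 0.0299, which became 0.078 under median centring and 0.226 when the Actb ratio was added to the fit, where the difference was -0.34.

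**Figure D1:**
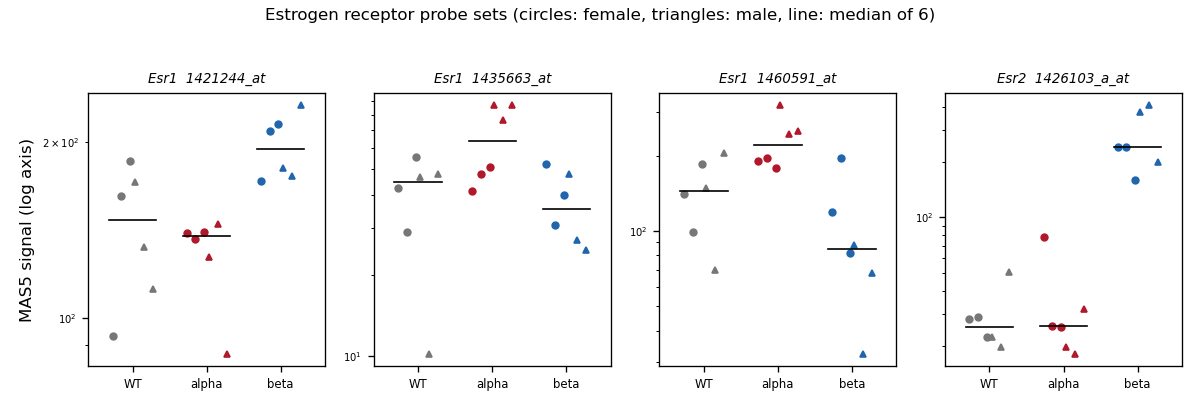
MAS5 signals on a log axis of the 3 Esr1 probe sets and the 1 Esr2 probe set in every array, for wild type (WT), ERalphaKO-labelled (alpha) and ERbetaKO-labelled (beta) brains; circles are female, triangles male, and lines are medians of 6. All 6 beta values of Esr2 (160.4 to 406.6) lie above all alpha values (18.2 to 78.2), and the first Esr1 probe set separates the lines in the opposite direction to the other Esr1 probe sets.

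Across the genome, 2075 of 18193 genes differed between the lines at an adjusted p below 0.05 (11.4%). Of these, 780 were higher (4.29%) and 1295 lower (7.12%) in the ERalphaKO-labelled line. With each array centred on its median in place of the common trimmed mean, 1443 were higher and 552 lower, so the balance of directions depends on the scaling. No called gene itself changed sign under median centring, quantile normalization or cyclic loess, and 1124 genes (625 higher, 499 lower) were called under all 4 scalings. The differences were mostly small, with a median size of 0.42 among called genes. Only 36 called genes exceeded a factor of 2 on this scale, 26 of them higher and 10 lower. The 6 values of one line lay wholly outside those of the other for 921 genes (5.06%), 313 of them higher (1.72%) and 608 lower (3.34%), and 766 of the 921 were also called (4.21%). When all 45037 probe sets were fitted singly, 4307 were called (9.56%), among them 926 of the 10092 without a single gene symbol (9.18%). The wild type mean lay between the means of the lines for 518 of the genes called higher and for 1118 of those called lower. These genes were called because the lines lay far apart, which by itself favours a wild type mean in between. Nothing is read from these counts.

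The count of calls changed when single arrays were left out and under the Actb covariate. It was 904 when the Actb ratio was added to the fit, 731 of them among the 2075. Leaving out 1 array gave 1331 without ERalphaKO-labelled female 1, 1238 without male 1 and 1082 without male 2 of that line, and 1235 and 1329 without ERbetaKO-labelled male 2 and male 3. Of 102 named genes called, 65 kept their call with each array left out in turn and 37 lost it with at least 1 array left out. ERalphaKO-labelled male 2 ended 29 of those calls, ERbetaKO-labelled male 2 ended 26, ERalphaKO-labelled male 1 ended 24 and ERalphaKO-labelled female 3 ended 23, and each of the other arrays ended 3 to 19. The genes described here that lost their call in this way were Esr1, 1700128E19Rik, Pelp1, Tfrc, Egr2, Vim, Myrf, Laptm5, Cx3cr1, Kdr, Vip, Lamp5, Slc32a1, Htr3a, Hspa2, Chordc1, Clock, Hsd17b7, Nsdhl, Aldh1a2, Syngr1, Rbl2, Cox8a, Ndufb10, Uqcrc1, Epm2a, Mthfd1, Pdia4, Stx1a and Syt1.

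Among the genes higher in the ERalphaKO-labelled line, the 12 with the widest separation were Erdr1, Sox11, Nipbl, Tmem18, G530011O06Rik, Tns2, Fgd6, Zdhhc1, Slc6a11, Speer4cos, Ssh3 and Gfap. For these the 6 values of one line lay outside the other's, in both sexes and in the same direction, as the choice required. Each was called under every scaling and pseudocount tried, and all 12 remained called when the Actb ratio was added.

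Erdr1, an X-linked gene of the pseudoautosomal boundary region named for its induction in erythroid differentiation, had a lowest, median and highest signal of 3588, 5350.4 and 8223 in the ERalphaKO-labelled line. The ERbetaKO-labelled values were 342, 510.3 and 702, and the wild type values 266, 327 and 414. The difference of 3.24 ± 0.18 (adjusted p = 7.25e-09) was the widest of all called genes with separated groups, and a second, weaker Erdr1 probe set differed by 1.02 in the same direction. Its chromosomal neighbour Mid1, a microtubule-associated ubiquitin ligase, averaged 879 ± 487 against 144.1 ± 26.8 (1.97, adjusted p = 0.00116). The lowest ERalphaKO-labelled Mid1 value, 168.9, fell inside the ERbetaKO-labelled range of 107.8 to 184.8. The other 2 Mid1 probe sets had weak signals and differences of 0.14 and 0.01.

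Nipbl, which loads cohesin onto chromosomes, ran from 959 to 1374 in the ERalphaKO-labelled line, with a median of 1249.5, and from 183 to 424, with a median of 284, in the ERbetaKO-labelled line (1.91 ± 0.14, adjusted p = 4.81e-07). Wild type brains averaged 436, nearer to the ERbetaKO-labelled line. Only 1 of its 4 other probe sets also passed the threshold in that direction, with a difference of 0.45. The others differed by 0.27, 0.13 and -0.11.

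Tmem18, a nuclear envelope protein gene studied for its link to body weight, had an ERalphaKO-labelled median close to that of wild type. It ran from 834 to 1006 in the ERalphaKO-labelled line and from 155 to 260.2 in the ERbetaKO-labelled line, with medians of 889 and 197.5 (1.85 ± 0.09, adjusted p = 6.39e-10), against a wild type median of 895. Sox11, a transcription factor of immature neurons, had medians of 655 and 101 and a wild type median of 408 (2.22 ± 0.28, adjusted p = 2.52e-04). Its other 5 probe sets had differences from -0.70 to 0.52. In a fit of all probe sets singly, 1 of them was called in the same direction (0.52, adjusted p = 0.042) and 1 in the opposite direction (-0.70, adjusted p = 0.0325).

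Several of the other genes in this set were near the floor of the array in the ERbetaKO-labelled line. The ERbetaKO-labelled mean was below the pseudocount of 63.63 for 5 of the 12. Fgd6 averaged 216 ± 68.6 against 43.7 ± 35.6 (1.40, adjusted p = 2.5e-04). Zdhhc1, a palmitoyltransferase gene, averaged 198 ± 51.4 against 36.4 ± 20.7 (1.39, adjusted p = 7.29e-05). In both, wild type averaged close to the ERalphaKO-labelled line, at 206.5 and 213. A second, weaker Fgd6 probe set, at 95.7 against 113.5, differed by -0.16 and was not called (adjusted p = 0.369 in the fit of all probe sets singly). Tns2, a focal adhesion protein gene, averaged 216 ± 67.1 against 38.2 ± 5.79, with wild type between them at 103.

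Gfap and Slc6a11, both expressed by astrocytes, had high signals. Gfap, the intermediate filament of astrocytes, ran from 1754 to 3018 in the ERalphaKO-labelled line, with a median of 2677, and from 962 to 1609, with a median of 1098, in the ERbetaKO-labelled line. The difference was 1.03 ± 0.14 (adjusted p = 4.36e-04), both other Gfap probe sets differed the same way (1.03 and 0.65), and the wild type median of 2802 was close to the ERalphaKO-labelled one. Slc6a11, the GABA transporter GAT-3 of astrocytes, had medians of 1914 and 870.2 (1.08 ± 0.20, adjusted p = 0.00476). Restricted to arrays with a Pcp2 signal of 500 or more, its difference was 1.00 and its adjusted p 0.0515, and it was the only one of the 12 no longer called. A second probe set of Slc6a11, with means of 14.0 and 28.3, differed by -0.23.

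The 12 widest differences in the other direction were at lower signals. They were Esr2, Sf3b3, Misp, Il1f6, Ang4, Ddit4l, Des, Ttc36, Olfr288, Fam110c, 1700128E19Rik and Akr1cl. For 6 of these (Esr2, Misp, Ang4, Ttc36, Olfr288 and Akr1cl) the ERalphaKO-labelled mean lay below the pseudocount, and only 2 reached an ERbetaKO-labelled mean of 700 or more. Ang4 and 1700128E19Rik were no longer called when the Actb ratio was added. Their differences were then -0.76 (adjusted p = 0.186) and -0.94 (adjusted p = 0.114), against -1.08 and -0.87 without it.

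Sf3b3, a subunit of the SF3B complex of the U2 small nuclear ribonucleoprotein, had the tightest groups. Its ERalphaKO-labelled values ran from 808 to 989 with a median of 861, and its ERbetaKO-labelled values from 2387 to 2592 with a median of 2556. The difference was -1.46 ± 0.16 (adjusted p = 9.44e-05), while wild type values spread from 676 to 1814. A second, weaker Sf3b3 probe set averaged 405 against 338, a difference of 0.23 in the opposite direction (unadjusted p = 0.0298, adjusted p = 0.136).

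Ddit4l, an inhibitor of mTOR signalling, ran from 363 to 644 in the ERalphaKO-labelled line and from 831 to 1319 in the ERbetaKO-labelled line, with medians of 532 and 1069.9 (-0.95 ± 0.15, adjusted p = 0.00215). Its other 2 probe sets differed by -0.71 and -0.81 and also passed the threshold. Des, the muscle intermediate filament desmin, which marks mural cells in brain, ran from 155 to 277 against 336 to 491 (-0.95 ± 0.12, adjusted p = 4.11e-04). Its weaker second probe set differed by -0.15. Il1f6, an interleukin-1 family cytokine gene, ran from 81.4 to 335 against 381 to 874 (-1.11 ± 0.20, adjusted p = 0.00408). The wild type median of each of Ddit4l, Des and Il1f6 lay between the medians of the lines.

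**Figure D2:**
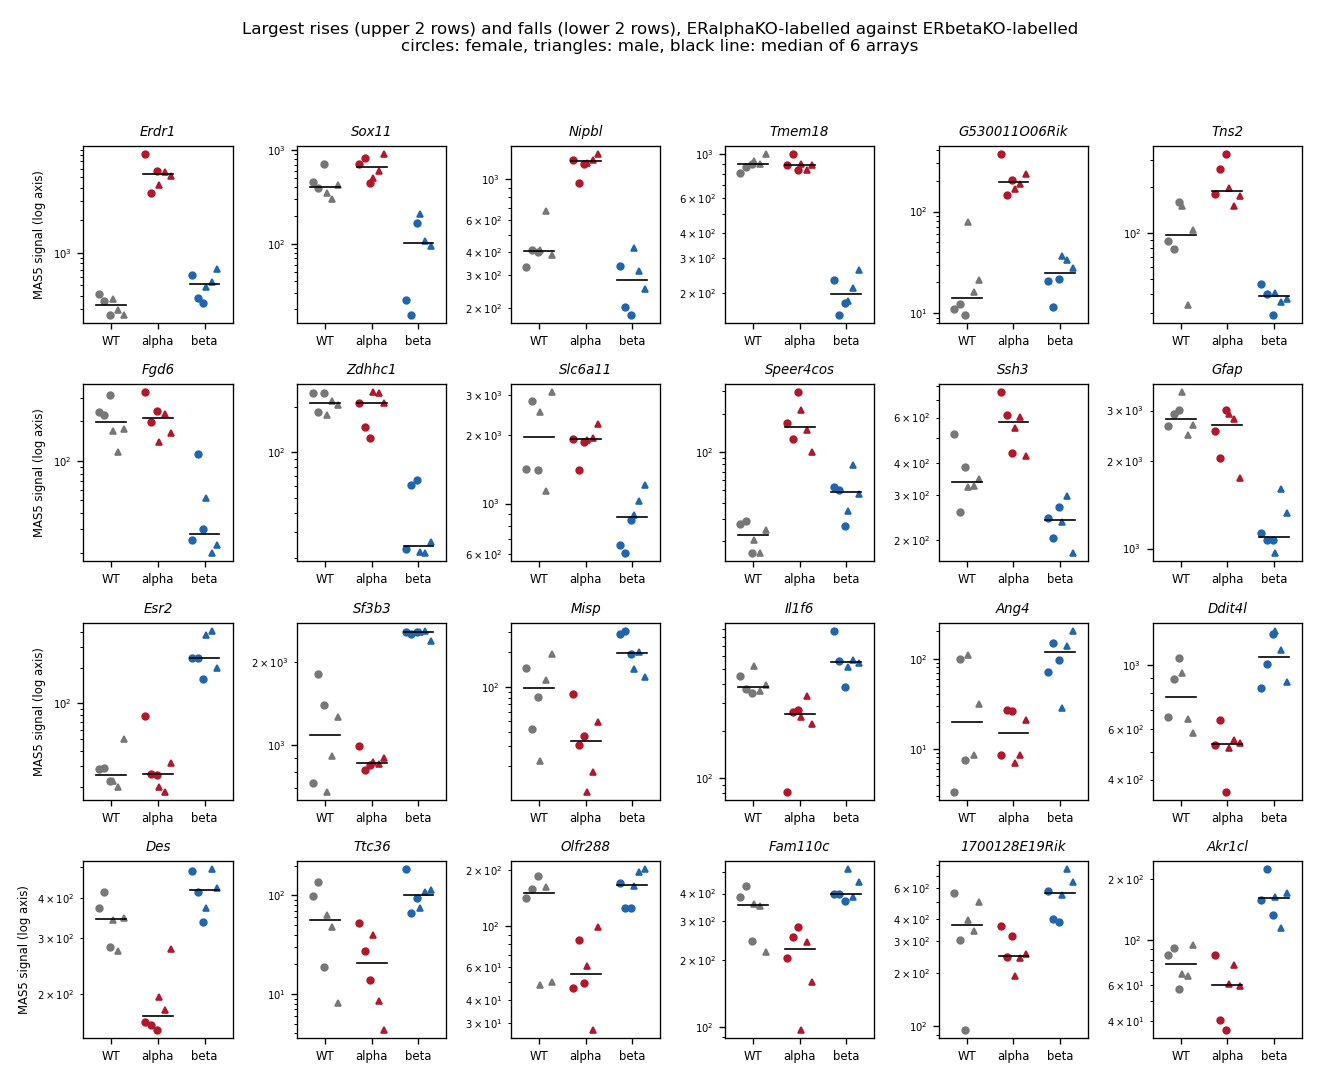
MAS5 signals on log axes of the 12 genes most higher (upper 2 rows) and the 12 most lower (lower 2 rows) in the ERalphaKO-labelled line, for wild type (WT), ERalphaKO-labelled (alpha) and ERbetaKO-labelled (beta) brains; circles are female, triangles male, and black lines medians of 6. The alpha and beta values do not overlap in any panel, as the rule of choice required, and wild type lies near alpha in some (Tmem18, Fgd6, Gfap) and near beta in others (Erdr1, Nipbl).

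Of 16 measured estrogen receptors and coregulators, 1 was higher and 3 were lower (25% called, against 11.4% of all genes), with a list median of 0 against -0.05 over all genes. Ep300, a histone acetyltransferase coactivator, averaged 1338 ± 164 against 943 ± 220.2 (0.50, adjusted p = 0.013), with a difference of 0.49 and an adjusted p of 0.0759 once the Actb ratio entered the fit. Pelp1, an estrogen receptor coregulator, averaged 795 ± 34.8 against 908 ± 40.6 (-0.18, adjusted p = 0.0439), and leaving out any of 9 single arrays ended that call. The remaining called members were the receptors themselves.

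Of 26 estrogen responsive genes, none was higher and 3 were lower (11.5% called, against 11.4% of all genes), with a median of -0.07. These were Tff1, a trefoil peptide and classical estrogen target of breast cells, at 2527 ± 162 against 3686 ± 772 (-0.51, adjusted p = 0.0108), Ltf, the iron-binding protein lactoferrin, at 200.2 ± 26.5 against 301 ± 52.5 (-0.46, adjusted p = 0.0111), and Tfrc, the transferrin receptor, at 2292 ± 227 against 2689.9 ± 182 (-0.23, adjusted p = 0.0265). The 6 values of Tff1 did not overlap between the lines, running from 2224 to 2679 against 2829 to 4737. None of the 11 other steroid receptors measured was called (median 0.04). Under median centring 2 of these 11 were called higher.

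The palindromic estrogen response element, with the arms GGTCA and TGACC separated by 3 bases of any kind, reads the same on both strands. It was sought in promoter windows of RefSeq genes (GRCm38.p6), from 250 bases before to 50 bases after the annotated start. It occurred in 23 of 32851 windows (0.07%). By gene, 5 of 14452 tested genes with a window carried it (0.0346%), among them 0 of 628 called higher and 1 of 990 called lower (0.101%). That gene was Evx2, a homeobox transcription factor gene, which averaged 150.4 against 247.7 in the ERbetaKO-labelled line (-0.53 ± 0.13, adjusted p = 0.0149). Its window lies at chr2:74659508-74659807 on the minus strand and is shown with the element in capitals as the only match among called genes.
Evx2: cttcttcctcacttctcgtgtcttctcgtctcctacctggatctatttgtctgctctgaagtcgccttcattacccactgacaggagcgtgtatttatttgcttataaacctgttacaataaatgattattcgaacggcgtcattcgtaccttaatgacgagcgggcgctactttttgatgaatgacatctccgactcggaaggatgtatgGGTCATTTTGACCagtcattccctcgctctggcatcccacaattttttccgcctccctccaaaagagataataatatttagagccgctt
A match of letters is a description and not a binding site, and its absence from a window says nothing about the receptor.

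Several markers of cortical and hippocampal neurons, and several synaptic vesicle genes, were lower in the ERalphaKO-labelled line. Of 17 cortical and hippocampal markers, 1 was higher and 5 were lower (35.3% called, against 11.4% of all genes), with a median of -0.36. Camk2a, the postsynaptic kinase subunit, ran from 2504 to 3684 in the ERalphaKO-labelled line and 3538 to 7583 in the ERbetaKO-labelled line (-0.83 ± 0.17, adjusted p = 0.00768). Its ranges overlapped slightly, and 2 of its 5 other probe sets had positive differences, 0.40 and 0.52, that did not pass the threshold. Dkk3, a Wnt modulator of pyramidal neurons, ran from 1313 to 2273 against 2464 to 3270.2 with no overlap (-0.74 ± 0.13, adjusted p = 0.00286). Rorb, a nuclear receptor of cortical layer 4, averaged 648 ± 118 against 1075 ± 198 (-0.68, adjusted p = 0.00583), and Lamp5, a lysosome-associated membrane protein of forebrain neurons, 2791 ± 774 against 4098 ± 482 (-0.58, adjusted p = 0.0216). Prox1, which marks dentate granule cells and also labels some interneurons, was the member called higher, at 0.46.

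No cerebellar marker was called. Of 20 measured, 18 had a positive difference, with a median of 0.73, which was 0.25 with the Actb ratio as a covariate. With the cerebellar marker level as a covariate the median was 0. That covariate is the mean of these same markers, so a median near 0 was fixed in advance and nothing is read from it. Their summed signal ran from 13947 to 68444 in the ERalphaKO-labelled line and from 12703 to 94345 in the other, so the lines overlapped. The cortical count was also 5 lower and 0 higher on arrays with a Pcp2 signal of 500 or more (median -0.37). It was 5 lower and 1 higher with the cerebellar marker level as a covariate (-0.29). The Actb covariate gave 5 lower and 0 higher (-0.43), and median centring gave 4 lower and 1 higher (-0.27). Over all genes 1796, 2399, 904 and 1995 were called under these settings, in that order. The summed signal of the cortical markers ran from 24255 to 36191 against 34075 to 43353. The 15 striatal markers had no called member (median -0.19), and of 16 thalamic markers only Cplx1 was called, lower, with a median of 0.28.

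Of 24 synaptic vesicle genes, 1 was higher and 5 were lower (25% called, against 11.4% of all genes), with a median of -0.13. Cplx1, a complexin that binds the SNARE complex, was separated without overlap at 7715 to 9860.4 against 10601 to 13683 (-0.49 ± 0.08, adjusted p = 0.00222), and both other Cplx1 probe sets went the same way. Sv2b, a synaptic vesicle glycoprotein, averaged 5725 ± 781 against 7373 ± 357 (-0.37, adjusted p = 0.0191). Its paralogue Sv2a went the other way without overlap, at 3919.6 to 4897 against 3093 to 3891 (0.31 ± 0.07, adjusted p = 0.0108). Syngr1, a vesicle membrane protein, Stx1a, a plasma membrane SNARE, and Syt1, the calcium sensor of release, were the other lower members, at -0.29, -0.52 and -0.40. Under median centring only 1 member of the list was called lower and 2 were called higher.

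Among inhibitory neuron genes, Slc32a1, the vesicular GABA transporter, was higher at 2156 ± 196 against 1576 ± 287 (0.45, adjusted p = 0.0266). Vip, a neuropeptide of interneurons and of the suprachiasmatic nucleus, was lower at 1213 ± 337 against 1808 ± 117 (-0.59, adjusted p = 0.0255), with a difference of -0.68 and an adjusted p of 0.0735 under the Actb covariate. Htr3a, an ion channel serotonin receptor, was also lower (-0.37, adjusted p = 0.0383). Of 15 interneuron markers 1 was thus higher and 2 were lower (20% called, against 11.4% of all genes).

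Immediate early genes report recent neuronal activity. Of 30 measured, 1 was higher and 1 lower (6.67% called, against 11.4% of all genes), and the median was -0.05. Egr2 ran from 176.5 to 583 in the ERalphaKO-labelled line and from 436 to 754 in the ERbetaKO-labelled line (-0.73 ± 0.20, adjusted p = 0.0247), against a wild type mean of 132. Klf4 averaged 352 ± 60.4 against 219 ± 42.0 (0.55, adjusted p = 0.0113). Fos and Arc, chosen after their values were seen, did not pass the test between the lines. Fos averaged 2535 ± 598 and 2601 ± 426 with a wild type mean of 759 (-0.05 ± 0.15, adjusted p = 0.842), and Arc 2224 ± 1072 and 2929 ± 1022 with a wild type mean of 585 (-0.47 ± 0.31, adjusted p = 0.334).

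Of 18 astrocyte markers, 2 were higher and none was lower (11.1% called, against 11.4% of all genes), with a median of 0.09. Besides Gfap this was Vim, another intermediate filament gene, at 1683 ± 295 against 1018 ± 476 (0.76, adjusted p = 0.0291). The ERbetaKO-labelled Vim values included 1 of 1965, and the call was lost with the Actb covariate (0.59, adjusted p = 0.221). Aqp4, the astrocytic water channel, averaged 3694 ± 952 against 2503 ± 761 (0.55, adjusted p = 0.0625), and S100b, a calcium-binding protein, 4461 ± 1081 against 3072 ± 701 (0.52, adjusted p = 0.0767), neither passing the threshold. Slc1a2, the main astrocytic glutamate transporter, had a difference of -0.25 (adjusted p = 0.12).

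Of 16 oligodendrocyte and myelin markers only Myrf, the transcription factor that drives myelin genes, was called (6.25%, against 11.4% of all genes). It averaged 1766 ± 579 against 919.9 ± 269 (0.87 ± 0.23, adjusted p = 0.0227), and the list median was 0.23 with 14 of 16 differences positive. Of 12 precursor markers 3 were higher and 1 was lower (33.3% called, against 11.4% of all genes). Vcan, the extracellular matrix proteoglycan versican, ran from 368 to 427 against 229.8 to 321 (0.47 ± 0.09, adjusted p = 0.00476), but its 7 other, weaker probe sets had differences from -0.32 to 0. Lhfpl3, a membrane protein of precursors, averaged 1061 ± 125 against 718 ± 158 (0.54, adjusted p = 0.0153), and Bcan, the proteoglycan brevican, 5143 ± 315 against 6582 ± 995 (-0.34, adjusted p = 0.0205). A second Bcan probe set, at 1587 against 1435, differed by 0.14 in the opposite direction (limma, unadjusted p = 0.0209, adjusted p = 0.112). Under median centring Bcan was no longer called (-0.25, adjusted p = 0.124).

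Of 17 microglia and macrophage markers, 4 were lower and 1 was higher (29.4% called, against 11.4% of all genes). The list median was -0.15, with a positive difference in only 4 members. Trem2, a microglial lipid receptor, was lower at 63.4 ± 21.3 against 156 ± 30.8 (-0.79 ± 0.16, adjusted p = 0.00774). Ctss, a lysosomal protease, averaged 2184 ± 93.3 against 2714 ± 184 (-0.30, adjusted p = 0.0196), and Laptm5, a lysosomal membrane protein, 576 ± 87.7 against 857 ± 147 (-0.52, adjusted p = 0.0273). The 4 other Laptm5 probe sets differed by -0.06 to 0.11 and none was called, and the mean over its probe sets differed by -0.08 (adjusted p = 0.606). Fcer1g, an immune receptor signalling chain, was the fourth, at -0.61. Cx3cr1, the fractalkine receptor of microglia, was higher at 688 ± 114 against 449 ± 226 (0.64, adjusted p = 0.0289). Under the Actb covariate only 1 member remained called lower and none higher.

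Vascular markers showed 1 higher and 1 lower member of 19 (10.5% called, against 11.4% of all genes). Vtn, the pericyte-expressed matrix protein vitronectin, was higher at 1987 to 2366 against 1452 to 1903 without overlap (0.35 ± 0.07, adjusted p = 0.00705). Kdr, the VEGF receptor 2 of endothelium, was lower at 286 ± 48.5 against 422 ± 66.5 (-0.48, adjusted p = 0.0247). None of 14 choroid plexus, 10 pituitary hormone or 10 blood cell genes was called.

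**Figure D3:**
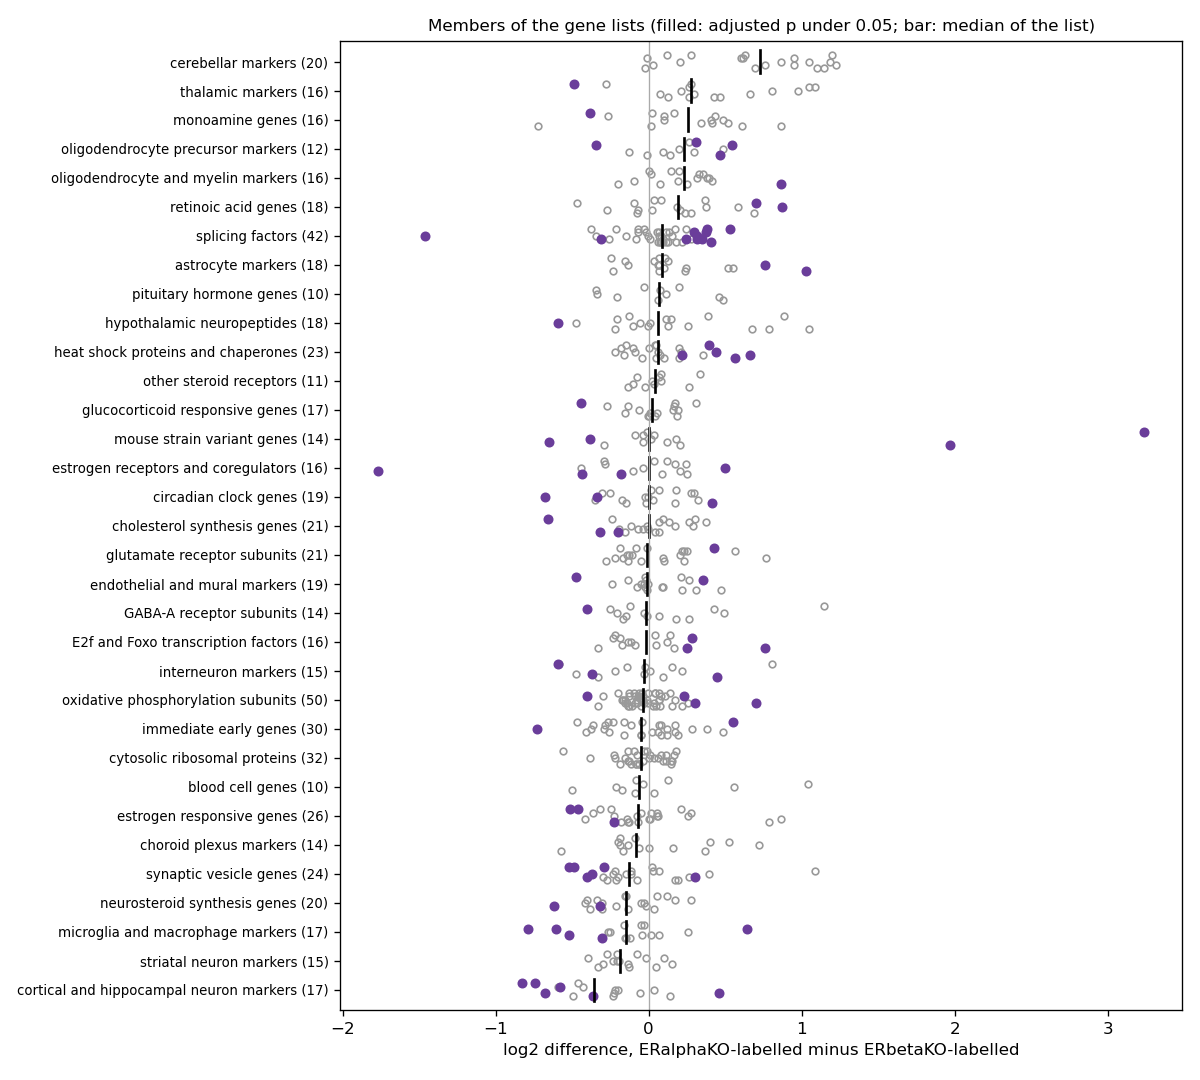
Log2 differences (ERalphaKO-labelled minus ERbetaKO-labelled) of the members of 33 gene lists, with the number measured in parentheses; filled points have an adjusted p below 0.05, open points do not, and bars are list medians. Cerebellar markers have the highest median (0.73) with 0 filled points, and cortical and hippocampal neuron markers the lowest (-0.36) with 6.

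The median difference of 23 heat shock proteins and chaperones was only 0.06. In this list 5 were higher in the ERalphaKO-labelled line and none was lower (21.7% called, against 11.4% of all genes). The members were the stress-inducible HSP70 genes Hspa1a and Hspa1b, the HSP70 relative Hspa2, the endoplasmic reticulum disulfide isomerase Pdia4 and the HSP90 cochaperone Chordc1. Hspa1a ran from 496 to 720.3 against 334 to 434 without overlap (0.56 ± 0.10, adjusted p = 0.00425). Hspa1b averaged 1105 ± 301 against 657 ± 74.1 (0.66 ± 0.15, adjusted p = 0.0109), and its other 2 probe sets differed by 0.58 and 0.54. Hspa1a and Hspa1b are near-identical copies, so their signals may be shared. Hspa2 averaged 1269.5 ± 175 against 925 ± 175 (0.44, adjusted p = 0.0365), Pdia4 509 ± 20.1 against 381 ± 96.7 (0.39, adjusted p = 0.0374) and Chordc1 1391 ± 132 against 1185 ± 77.3 (0.22, adjusted p = 0.0365). Members not called included Hspa8 (-0.22), Hsp90aa1 (-0.15), Dnajb1 (0.04) and Cryab (0.35). Under the Actb covariate 2 of the 5, Hspa1a and Hspa1b, remained called.

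Heat shock factor binds alternating inverted repeats of GAA and TTC. A run of 3 such repeats starting with either, each separated from the next by 2 bases of any kind, was sought on both strands. It occurred in 0.603% of promoter windows and in 4 of the 20 chaperone genes with a window. Of the 5 called chaperone genes only Chordc1 carried the element, while Hsph1, Hspd1 and Hspe1 carried it and were not called. The Chordc1 window, at chr9:18292017-18292316 on the plus strand, held 3 overlapping matches, shown as 1 run in capitals.
Chordc1: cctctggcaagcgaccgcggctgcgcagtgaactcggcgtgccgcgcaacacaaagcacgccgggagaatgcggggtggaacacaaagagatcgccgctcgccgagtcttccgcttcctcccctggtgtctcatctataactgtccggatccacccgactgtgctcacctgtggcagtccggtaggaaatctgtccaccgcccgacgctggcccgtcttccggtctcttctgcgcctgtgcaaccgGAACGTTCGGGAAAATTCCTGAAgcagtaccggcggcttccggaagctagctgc
Among all called genes with a window the element was present in 4 of 628 called higher (0.637%) and 1 of 990 called lower (0.101%).

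Splicing factors were the list with the most called members by number, though not by share, which was highest for cortical and hippocampal markers (35.3%). Of 42 measured, 9 were higher and 2 lower (26.2% called, against 11.4% of all genes), with a median of 0.09. For 8 members the ERalphaKO-labelled values lay wholly above the others, as they did for 1.72% of all genes. Tra2a, a serine/arginine-rich splicing activator, ran from 1154 to 1513 against 839 to 988 (0.53 ± 0.06, adjusted p = 1.94e-04). Of its 5 other probe sets, 1 was called higher (0.74) and 1 called lower (-0.58). Hnrnpd, an RNA-binding protein that controls splicing and message decay, ran from 2168 to 2359 against 1526 to 1987 (0.38 ± 0.06, adjusted p = 0.00186). Clk1, a kinase of serine/arginine-rich proteins, averaged 2247 ± 192 against 1678 ± 175 (0.41, adjusted p = 0.00448). The other higher members, chosen after their values were seen, were Clk4, Rbm39, Srsf2, Srsf3, Snrnp70 and Prpf8. Their differences were 0.35, 0.30, 0.31, 0.32, 0.38 and 0.24 in that order. The lower members were Sf3b3 and Sf3a2, both components of the U2 small nuclear ribonucleoprotein. Under the Actb covariate 2 members were called higher and 2 lower.

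Of 50 oxidative phosphorylation subunits 3 were higher and 1 lower (8% called, against 11.4% of all genes). Ndufs8, an iron-sulfur subunit of complex I, ran from 5359 to 6983 against 3152 to 4283 (0.71 ± 0.11, adjusted p = 0.00216). Of its 5 other probe sets 1 was called in the same direction (0.46, adjusted p = 0.0114) and the others differed by 0.01 to 0.14, and the mean of all 6 was no longer called (0.23, adjusted p = 0.0732). Ndufb10 of complex I and Uqcrc1 of complex III had differences of 0.30 and 0.23, and Cox8a of complex IV had -0.40. None of 32 cytosolic ribosomal protein genes was called (median -0.05). Of 21 cholesterol synthesis genes 3 were lower and none higher (14.3% called, against 11.4% of all genes). Among these, Pmvk, the phosphomevalonate kinase, ran from 443 to 546 against 719 to 897 (-0.66 ± 0.09, adjusted p = 7.54e-04). Hsd17b7 and Nsdhl, which act late in the same pathway, differed by -0.32 and -0.20.

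Steroid synthesis within the brain was represented by 20 genes, of which 2 were lower (10% called, against 11.4% of all genes). Cyp11a1, the side-chain cleavage enzyme that makes pregnenolone, ran from 132 to 209.4 against 244.8 to 339 (-0.62 ± 0.14, adjusted p = 0.0108). Its other, weaker probe sets differed by -0.10 and 0.13 and were not called. Hsd17b7, shared with the cholesterol list, was the other lower member. Of 18 retinoic acid genes 2 were higher (11.1% called, against 11.4% of all genes). Crabp2, a retinoic acid carrier, averaged 107.8 ± 45.1 against 29.0 ± 24.5 (0.87 ± 0.20, adjusted p = 0.0123), and Aldh1a2, a retinoic acid synthesizing enzyme of the meninges, 368 ± 71.7 against 208 ± 79.5 (0.70 ± 0.20, adjusted p = 0.0355). Of 16 E2f, Foxo and related factors, 3 were higher and none was lower (18.8% called, against 11.4% of all genes): Foxo4 at 158 ± 58.4 against 66.0 ± 30.6 (0.76, adjusted p = 0.0187), and Rbl2 and Tfdp2, partners in E2F complexes, at 0.28 and 0.25. Of 19 circadian clock genes, 1 was higher and 2 were lower (15.8% called, against 11.4% of all genes). Clock was higher (0.41, adjusted p = 0.0247), while Hlf (-0.34) and Rorb were lower. Another Clock probe set differed by -0.24 (unadjusted p = 0.015, adjusted p = 0.0932).

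Among 14 genes known to vary between mouse strains or substrains, 2 were higher (Erdr1 and Mid1) and 2 lower (28.6% called, against 11.4% of all genes). Nnt, the mitochondrial transhydrogenase disrupted in the C57BL/6J substrain, ran from 726 to 901 in the ERalphaKO-labelled line and from 1115 to 1439 in the ERbetaKO-labelled line (-0.65 ± 0.07, adjusted p = 4.37e-05), with wild type at 1423. Its 2 other probe sets differed by -0.77 and -0.35 and also passed. Crb1, a retinal polarity protein gene mutated in the C57BL/6N substrain, averaged 218 ± 14.5 against 306 ± 44.9 (-0.38, adjusted p = 0.0189). That call was lost with the Actb covariate (-0.31, adjusted p = 0.156). A second Crb1 probe set, at 251 against 262, differed by -0.06 and was not called (adjusted p = 0.872 in the fit of all probe sets singly). Gabra2, a GABA-A receptor subunit with a known C57BL/6J variant, averaged 854 ± 121 and 748 ± 121 (0.18, adjusted p = 0.369) with wild type at 1509.5. With the cerebellar marker level as a covariate it was called (0.31, adjusted p = 0.00392). A second Gabra2 probe set, at 579 against 399, was called in the fit of all probe sets singly (0.47, adjusted p = 0.0259). The remaining, weaker ones differed by -0.31 to -0.05 and were not called.

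In females alone only 6 genes passed (0.033%): Gfap, Nipbl, Mid1, G530011O06Rik, Erdr1 and Tmem18, all higher in the ERalphaKO-labelled line. In males alone 686 passed (3.77%). The test of the difference between the sexes called 0 genes (limma; 1226 at an unadjusted p below 0.05, 6.74%), so the unequal counts do not show that the lines differed more in males. All 24 leading genes had the same sign in both sexes, as the choice required. Xist was lower in the ERalphaKO-labelled line (-0.42 ± 0.09, adjusted p = 0.0103), by -0.69 in males, where its signal was weak (226 to 257 against 403 to 449), and by -0.15 in females.

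Genes near the targeted loci were compared because a knockout allele carries flanking chromosome with it when it is bred onto another strain. The nearest 100 annotated genes in each direction were taken. Of 51 tested genes around Esr1, on chromosome 10, 7 were called (13.7%), and of 85 around Esr2, on chromosome 12, 13 were called (15.3%), against 11.4% of all genes. Near Esr1, Stx11, a syntaxin of immune cells, ran from 60.5 to 172 against 213 to 231 (-0.65 ± 0.13, adjusted p = 0.00571), and Phactr2, an actin and phosphatase regulator, from 433 to 778 against 324 to 423 (0.52 ± 0.11, adjusted p = 0.00894). Near Esr2, Syne2, a nuclear envelope linker, ran from 125 to 204 against 220.4 to 263 (-0.47 ± 0.10, adjusted p = 0.00894), and Snapc1, a subunit of the small nuclear RNA activating complex, averaged 763 ± 142 against 472 ± 129 (0.64, adjusted p = 0.0103).

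A separate stretch of chromosome 12, 598 annotated genes away from Esr2, held several of the widest differences. From Mboat2 to Tmem18, a stretch chosen after its values were seen, 10 of 24 tested genes were called. Its ends were set at called genes, so nothing is read from that count. Mboat2, a lysophospholipid acyltransferase, ran from 1159 to 1804 against 706 to 811 (0.79 ± 0.09, adjusted p = 8.87e-05), with wild type at 1487. Sox11 and Tmem18 lie in this stretch. Adi1, an enzyme of methionine salvage, averaged 679 ± 154 against 1245 ± 71.3 with wild type at 689.6 (-0.84 ± 0.14, adjusted p = 0.00216). Its other 2 probe sets went the opposite way, at 697 against 294 (1.10) and 978 against 529 (0.81), with adjusted p of 7.57e-05 and 9.44e-05 in the fit of all probe sets singly.

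**Figure D4:**
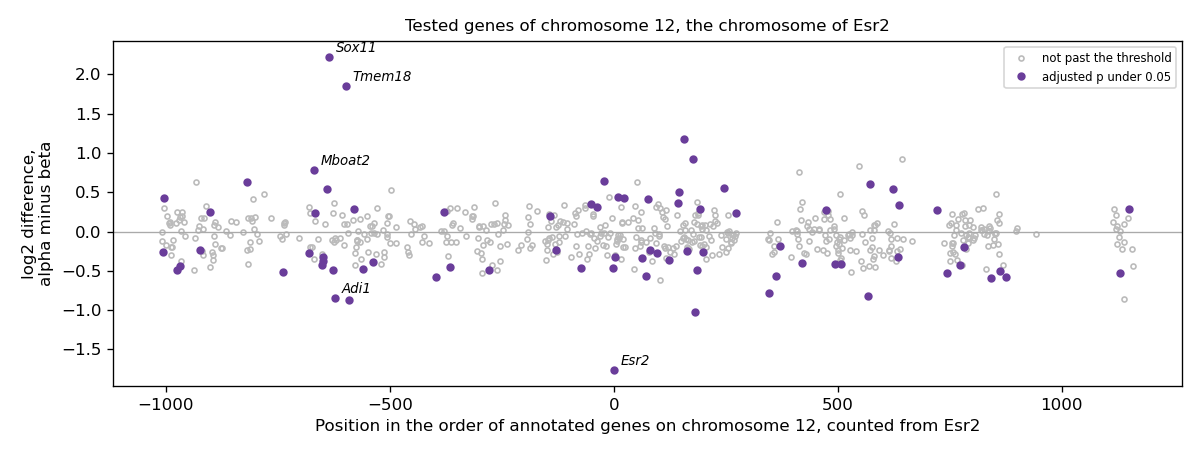
Log2 difference (ERalphaKO-labelled minus ERbetaKO-labelled) of the 624 tested genes of chromosome 12 against their position in the order of annotated genes, counted from Esr2; filled points have an adjusted p below 0.05. Sox11 (2.22), Tmem18 (1.85), Mboat2 (0.79) and Adi1 (-0.84) lie close together about 598 or more annotated genes before Esr2 (-1.77).

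The direction of the called differences changed with signal level. Genes were ordered by mean signal and divided into 5 equal classes, class 1 being the weakest. Class 2 had a median difference of -0.18, with 55 genes called higher and 418 lower, while class 4 had a median of 0.03, with 294 higher and 212 lower. Under cyclic loess, which scales arrays by signal level and was added after this pattern was seen, the median of class 2 was -0.06 and the genome-wide calls were 820 higher and 957 lower. The Actb ratio, which differed between the lines, gave 445 higher and 459 lower when entered as a covariate. The part of weak-signal background and RNA quality in the excess of lower calls was not tested beyond these values.

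**Figure D5:**
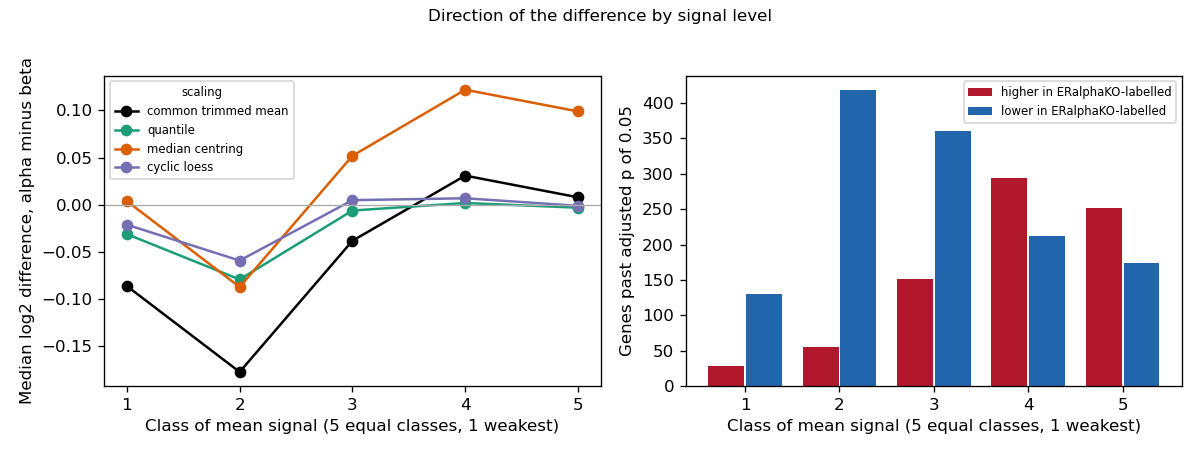
Left, median log2 difference of the genes in each of 5 classes of mean signal under 4 scalings; right, number of genes with an adjusted p below 0.05 in each direction under the common trimmed mean. Class 2 has a median of -0.18 and 418 lower against 55 higher calls, and class 4 has 294 higher against 212 lower calls.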

How the data were processed

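The deposited intensities were linear MAS5 signals (the submitters' processing notes; version not given in the sources used here), scaled by the authors so that the 2% trimmed mean of 45101 probe sets was 500 on every array. Without the 64 control probe sets 45037 remained, of which 932 had several gene symbols and 9160 none, and these named no gene. The array annotation names no genome build, so no gene coordinates are given except those of RefSeq promoter windows (GRCm38.p6). Each of 18193 genes was represented by its brightest probe set, averaged over 18 arrays, with no filter on low signal, and there are no detection calls. Values were transformed as log2(signal + 63.63), the 25th percentile of all signals.

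A limma 3.58.1 model (R 4.3.3) with genotype and sex was fitted to all 18 arrays with an intensity trend, with Benjamini-Hochberg adjustment at 0.05 over all genes, and the sex interaction with a mean for each of 6 groups. Control ratios and receptor probe sets used two-sided exact permutation tests in scipy 1.17.1. Precision is limited by the number of arrays. Genes were named by rule: both receptors, the 12 widest called and separated differences each way, up to 4 members of each list with the smallest adjusted p (6 for immediate early, astrocyte, estrogen responsive and strain variant genes), up to 6 called neighbours of each receptor, 3 genes of the interaction, and Xist, Pcp2 and Gh. List members beyond these were chosen after their values were seen. Of 729 list entries 648 matched a measured gene. The comparison, the named members and the 33 lists were chosen with earlier results of these data known. Alternatives covered pseudocounts, scaling, filters, probe sets, weights, covariates and left-out arrays.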

Additional observations from a re-analysis of the deposited data

Results flagged for a closer look

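In 18 of 248 groups of 6 values the highest or lowest sample stood apart from the rest by the share of the range that marks a far value, of which chance marks about 1 in 20 groups. ERalphaKO-labelled values standing apart were Esr1 at 86.8 (male 3), Esr2 at 78.2 (female 1), Nipbl at 959 (female 2), Il1f6 at 81.4 (female 1), Trem2 at 106 (male 3), Cx3cr1 at 911 (male 3), Kdr at 192 (female 1), Sv2a at 4897 (male 1), Snapc1 at 487 (male 3), Sf3a2 at 1971 (female 1) and Gh at 19069 (male 2). ERbetaKO-labelled values standing apart were Sf3b3 at 2387 (male 3), Vim at 1965 (female 1), Trem2 at 99.7 (male 2), Crabp2 at 78.2 (female 2), Stx1a at 4449.7 (female 1), Gh at 18078 (female 1) and the Actb ratio at 1.84 (female 2).

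For 3 genes the difference between the lines had opposite signs in females and males with separated values in each sex. The female difference minus the male difference was -0.70 for Vta1, 1.46 for AU015836 and 0.96 for 4930442L01Rik. In limma's test of this difference across all genes each had an adjusted p of 0.409.

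Of 10092 probe sets without a single gene symbol, which entered no gene comparison, 926 had an adjusted p below 0.05 between the lines (9.18%).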

How the results depend on the processing

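The count of 2075 called genes became 3642 with array weights, 904 with the Actb ratio as a covariate, 6 in females alone and 686 in males alone, and 4307 of 45037 when all probe sets were fitted singly. Leaving out 1 array gave 1082 to 2135. Other alternatives gave 1449 (the filter at the 60th percentile) to 2399 (the cerebellar marker covariate). The interaction, which was not refitted with cyclic loess, the covariates or the Pcp2-restricted arrays, called 0 genes under the other alternatives run, and 0 to 1 with an array left out (1 without ERbetaKO-labelled male 2). The Gapdh ratio difference of 0.0016 ranged from -0.0034 to 0.0067 with an array left out.

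Replicate numbers did not pair the lines: same-numbered samples had correlated deviations of 0.051, 0.125 and -0.308 in females and -0.173, 0.012 and -0.156 in males. With a replicate block 1940 genes were called.

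The mean of all probe sets of a gene reversed Esr1 (0.27), Nr4a2 (-0.15), Vcan (-0.05), Epm2a (0.02) and Adi1 (0.36). Median centring reversed Vta1 and Fos (both 0.04). Males alone reversed Vta1 (0.30) and Fos (0.06), and females alone AU015836 (0.31), 4930442L01Rik (0.19) and Gh (-2.24). On arrays with a Pcp2 signal of 500 or more Vta1 was 0.02 and Gh -0.33. With the cerebellar covariate Pcp2 was -0.18 and Gh -0.67, and with the Actb covariate Gh was -0.61. With an array left out Vta1 ranged from -0.12 to 0.01, Fos from -0.11 to 0.02 and Gh from -1.05 to 1.32. The causes were not tested. Of the 121 named genes 102 were called. Of these, 43 lost their call with the Actb ratio as a covariate, 27 on the Pcp2-restricted arrays and 23 under median centring. With the mean of all probe sets of a gene 32 lost it, besides Esr1, Vcan and Epm2a, which lost it and also reversed.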

Other observations

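Probe sets of one gene disagreed for several named genes. In the fit of all probe sets singly, Syt1 had 2 further probe sets at -0.40 and 1 at 0.64 (adjusted p = 0.0163), Epm2a had a second probe set at 0.58 (adjusted p = 0.0657) against -0.54 for the brightest, and Mthfd1 one at 0.31 (adjusted p = 0.0913) against -0.32. Other probe sets of Trem2 (-0.04), Foxo4 (-0.11), Hnrnpd (0.05 and 0.33), Hlf (-0.07) and Pdia4 (-0.23) did not pass the threshold. Those of Foxo4 and Pdia4 were opposite in sign to the brightest. For Ddit4l, Nnt, Rorb, Gfap and Hspa1b both other probe sets of the gene passed the threshold in the same direction.

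The 18S ribosomal RNA control nearest the 3' end averaged 326 ± 95.9 (SD, n = 6) on ERalphaKO-labelled and 537 ± 218 on ERbetaKO-labelled arrays (two-sided exact permutation p = 0.0411, unadjusted over 3 probe sets), while the 5' probe set averaged 116 ± 46.3 and 111 ± 50.4 (exact p = 0.838) and the middle one 85.8 ± 52.5 and 108 ± 58.3 (exact p = 0.455).

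The cyclic AMP response element TGACGTCA, a palindrome that activity-dependent promoters often carry, occurred in 1.79% of promoter windows and in 17 of 628 genes called higher (2.71%) and 16 of 990 called lower (1.62%), against 2.92% of all 14452 tested genes with a window.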
